A study of Mus musculus with 12 samples.

Results

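Mitochondrial ribosomal protein genes were followed in RNA-seq counts of cultured mouse bone marrow cells. They were taken as all protein-coding genes whose symbol starts with Mrpl or Mrps followed by a number, without pseudogenes, and 77 of the 41388 genes in the count files met this rule. The products of 50 of them belong to the large subunit of the mitochondrial ribosome and those of 26 to the small subunit. Mrps36 is an exception, since its product is a subunit of the 2-oxoglutarate dehydrogenase complex. Mrps18a and Mrps30 carry small-subunit symbols, but their products (mL66 and mL65) sit in the large subunit and were counted there. The low-count filter of the fit kept 75 of the 77 genes.

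The study compared 12 libraries in 4 groups of 3, made from primary bone marrow cells of C57BL/6 mice. Asxl2 encodes a chromatin regulator that partners the deubiquitinase BAP1. KO_OC cells were positive for LysM Cre, which is expressed from the Lyz2 locus in cells of the myeloid lineage, and received 2% M-CSF with 50 ng/ml RANKL for 2 days. The flox_OC cells had the Flox genotype (Asxl2flox) and the same M-CSF and RANKL, KO_BMM cells were LysM Cre positive with 2% M-CSF alone, and flox_BMM cells had the Flox genotype with M-CSF alone. Before this, cells of all groups spent 5 days in alpha MEM containing 10% FBS and were then trypsinized and replated. M-CSF keeps macrophages alive, and RANKL drives them towards osteoclasts, the multinucleated cells that resorb bone. The labels give no age or sex and do not say whether the replicates came from separate animals, so that p-values reflect only how far these libraries scatter, and that scatter may be technical. No group is labelled as Cre positive with intact Asxl2, so that loss of Asxl2 and presence of Cre cannot be told apart.

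Libraries held 18489873 to 21667237 counts. Asxl2 was at 13.7 ± 1.24 CPM in KO_OC, against 73.4 ± 2.27 CPM in flox_OC, and at 15.1 ± 0.265 CPM in KO_BMM, against 93.1 ± 3.01 CPM in flox_BMM (CPM, TMM-scaled counts-per-million, mean ± SD, n = 3). The 10 osteoclast markers summed to 379 to 396 CPM in KO_OC, 743 to 765 CPM in flox_OC, 206 to 210 CPM in KO_BMM and 234 to 243 CPM in flox_BMM. Calcr, the calcitonin receptor of mature osteoclasts, was at 0 in every library of KO_OC, KO_BMM and flox_BMM. The 8 macrophage markers summed to 16454 to 16691 CPM in KO_OC, 15472 to 15884 CPM in flox_OC, 27944 to 28694 CPM in KO_BMM and 31539 to 32575 CPM in flox_BMM. Macrophage transcripts were thus present in the libraries labelled osteoclast. The 10 stromal and osteoblast markers summed to 57.8 to 66.8 CPM in KO_OC, 189 to 193 CPM in flox_OC, 70.4 to 79.4 CPM in KO_BMM and 223 to 247 CPM in flox_BMM. The 5 megakaryocyte markers summed to 15.2 to 16.2 CPM in KO_OC, 134 to 140.5 CPM in flox_OC, 48.0 to 52.1 CPM in KO_BMM and 343 to 408 CPM in flox_BMM. The 8 neutrophil markers summed to 10.4 to 12.2 CPM in KO_OC, 34.4 to 36.3 CPM in flox_OC, 25.97 to 28.5 CPM in KO_BMM and 78.5 to 83.1 CPM in flox_BMM, with Ly6g at 0 in every library. The 5 B cell markers lay at 7.67 to 7.77, 11.2 to 12.7, 16.8 to 18.5 and 25.7 to 27.6 CPM in the same groups. The 4 T and NK cell markers lay at 38.4 to 42.5, 76.1 to 85.5, 54.4 to 59.2 and 93.2 to 94.8 CPM there, with Nkg7 at 0 in every library, and the 4 endothelial markers at 13.6 to 15.1, 24.0 to 24.7, 24.1 to 26.1 and 35.1 to 39.8 CPM. The 5 dendritic cell markers summed to 147 to 153 CPM in KO_OC, 163 to 174 CPM in flox_OC, 127 to 145 CPM in KO_BMM and 167 to 177 CPM in flox_BMM. Gp9, a megakaryocyte marker, was at 0 in every KO_OC and KO_BMM library. Cd3e, a T cell marker, was at 0 in every KO_OC, flox_OC and KO_BMM library. In each comparison of 2 groups, only Pf4 of the megakaryocyte markers and only Ighm of the B cell markers were called above a minimum mean level. Such sums rest on few genes and need not stand for cells of the named type. Erythroid, mast cell and basophil markers were at or near 0 in every library. Apart from these, the marker sums moved with the groups of every comparison below, except that those of dendritic cells overlapped between flox_OC and flox_BMM. Their part in the results was not tested. In bulk RNA, fewer cells of a type and less RNA per cell cannot be told apart.

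Mitochondrial ribosomes translate the few messenger RNAs of the mitochondrial genome, which encode core subunits of the respiratory chain and of ATP synthase. Their ribosomal RNAs come from the mitochondrial genome, but all of their proteins are encoded in the nucleus, made in the cytosol and imported. Some of these proteins have homologs in bacterial ribosomes, and others were acquired during the evolution of mitochondria. Osteoclasts are rich in mitochondria, and mitochondrial biogenesis accompanies their differentiation.

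The promoters of the genes with the largest called rise and fall in each comparison of 2 groups are shown because these genes carry the extremes of the results. Each sequence gives the 250 bases before the RefSeq start in GRCm38.p6, 5′ to 3′ on the gene's strand. Capitals mark the only matches found among 5 motifs, searched on both strands. These were an ETS motif CCGGAAG, a palindromic NRF1 motif, a YY1 motif AAGATGGC, an E-box CACGTG and an ERR motif AAGGTCA.
Mrps18a (chr17:46110754-46111003, plus strand): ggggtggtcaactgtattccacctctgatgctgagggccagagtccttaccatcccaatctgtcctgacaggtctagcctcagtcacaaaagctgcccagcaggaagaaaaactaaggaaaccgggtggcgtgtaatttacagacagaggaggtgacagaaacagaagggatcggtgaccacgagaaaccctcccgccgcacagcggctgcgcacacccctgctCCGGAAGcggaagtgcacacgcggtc
Mrpl52 (chr14:54426659-54426908, plus strand): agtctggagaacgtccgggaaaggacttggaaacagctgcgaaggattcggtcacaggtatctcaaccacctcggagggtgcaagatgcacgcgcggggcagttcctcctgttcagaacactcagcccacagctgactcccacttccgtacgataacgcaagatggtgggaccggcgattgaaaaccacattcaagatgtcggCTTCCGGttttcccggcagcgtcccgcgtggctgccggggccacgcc
Mrpl16 (chr19:11770165-11770414, plus strand): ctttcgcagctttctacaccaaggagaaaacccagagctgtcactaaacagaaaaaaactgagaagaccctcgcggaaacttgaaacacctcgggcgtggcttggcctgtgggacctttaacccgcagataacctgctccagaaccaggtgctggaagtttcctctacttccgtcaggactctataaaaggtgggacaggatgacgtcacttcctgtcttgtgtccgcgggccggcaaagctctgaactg
Mrps6 (chr16:92058086-92058335, plus strand): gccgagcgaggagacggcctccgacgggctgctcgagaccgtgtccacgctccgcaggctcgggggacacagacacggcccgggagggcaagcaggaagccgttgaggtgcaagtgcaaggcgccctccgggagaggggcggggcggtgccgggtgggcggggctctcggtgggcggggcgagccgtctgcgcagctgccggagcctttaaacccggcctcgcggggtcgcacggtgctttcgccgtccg
Mrps18a, the largest rise in KO_BMM against flox_BMM, held an ETS match whose first base lay 26 bases before the start. Mrpl52, the largest fall in KO cells under both treatments, held an ETS match on the other strand, 47 bases before the start. Mrpl16 and Mrps6 held no match to the 5 motifs in this window. Mrpl19, the largest fall with RANKL in KO cells, also belongs here, but no RefSeq promoter was found for it. Its sequence is therefore not shown and was not searched for motifs. RefSeq promoters matched 68 of the 77 genes. The ETS motif stood in 25.0% of these 68, against 15.0% of the 9275 tested protein-coding genes with a promoter. The NRF1 motif stood in 14.7%, against 8.75%, and the YY1 motif in 5.88%, against 2.06%. E-boxes stood in 7.35%, against 8.55%, and the ERR motif in 4.41%, against 2.60%. A match describes the letters of the window and is not a binding site.

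Levels differed widely between the genes. Per kilobase of exon, the median of the 75 genes was 17.6 CPM in KO_OC, 18.5 CPM in flox_OC, 13.8 CPM in KO_BMM and 13.0 CPM in flox_BMM. Mrpl52, which encodes the mitochondria-specific large-subunit protein mL52, had the highest level per kilobase in every group, at 128, 191, 91.1 and 113 CPM per kilobase in KO_OC, flox_OC, KO_BMM and flox_BMM. It was followed, on the mean over all libraries, by Mrpl42, Mrpl28, Mrps15 and Mrpl34. Mrpl23, a protein of the polypeptide exit tunnel, was the lowest of the tested genes, at 1.17, 1.15, 0.750 and 0.881 CPM per kilobase in the same order of groups. Mrpl48 and Mrps33 came next from the bottom. A near-identical copy, Mrpl23-ps1, covers 68.9% of the Mrpl23 transcript, and copies cover 29.0% of that of Mrps33 and 14.8% of that of Mrpl48. Near the top, a copy covers 64.4% of the Mrpl42 transcript. The levels and ranks of these genes are therefore uncertain. The exon length is the union of the exons of all annotated isoforms, so that genes with long, rarely used exons appear low.

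Both untested genes were near the limit of detection. Mrpl53, a protein at the base of the ribosomal stalk, was at 0, 0.0495 and 0.0502 CPM in KO_OC and at 0.0902, 0.148 and 0 CPM in flox_OC. It was at 0.0543, 0 and 0.0969 CPM in KO_BMM and at 0 CPM in all 3 flox_BMM libraries. Before TMM scaling, 3 counts correspond to 0.138 to 0.162 counts-per-million. The gene model Gm42688 overlaps 87.1% of its exonic bases on the same strand, and reads that fall on both genes may not have been assigned to either. Mrps23, a small-subunit protein, lay between 0.145 and 0.487 CPM in the 12 libraries and shares no exonic bases with another gene. Why both genes were this low was not tested.

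**Figure D1:**
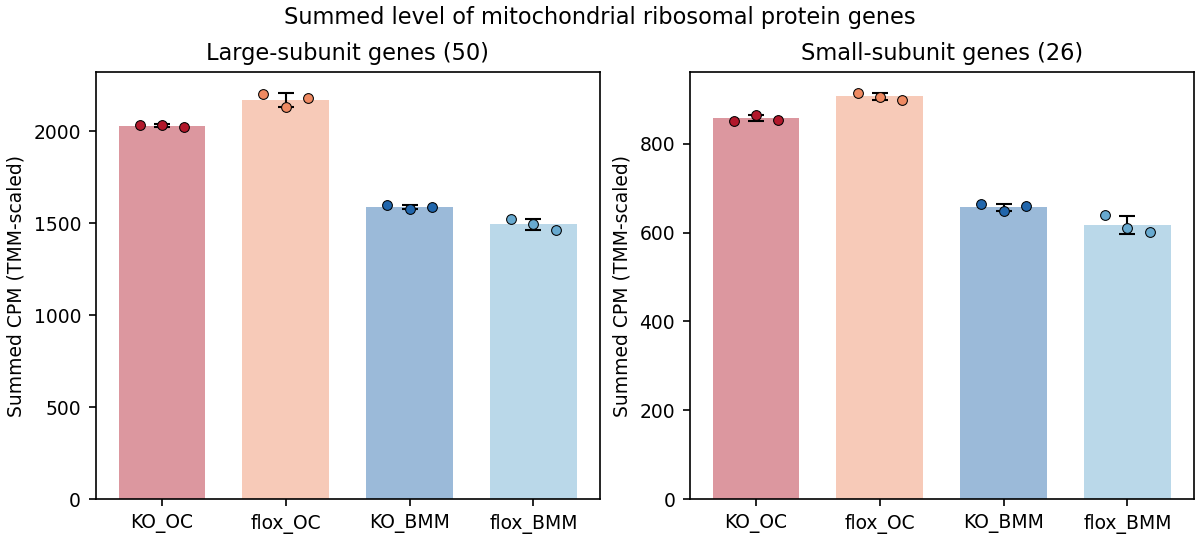
Summed CPM (TMM-scaled, linear axis from 0) of the 50 large-subunit genes (left) and the 26 small-subunit genes (right) by group. Bars are means, whiskers SDs and points the 3 libraries. Both sums lie highest in flox_OC, then KO_OC, then KO_BMM, then flox_BMM, and no group overlaps another.

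Summed over all 77 genes, the level was 2893 ± 11.5 CPM in KO_OC, 3084 ± 42.8 CPM in flox_OC, 2250 ± 19.2 CPM in KO_BMM and 2116 ± 50.9 CPM in flox_BMM (mean ± SD, n = 3). In this sum, which genes with high levels weigh most, the 3 libraries of each group lay apart from those of every other group. The median log2 level of the tested genes overlapped between genotypes. It was 5.25 to 5.28 in KO_OC, 5.24 to 5.29 in flox_OC, 4.83 to 4.96 in KO_BMM and 4.77 to 4.85 in flox_BMM. Large-subunit genes summed to 2029 ± 7.36 CPM in KO_OC, 2171 ± 38.1 CPM in flox_OC, 1587 ± 12.2 CPM in KO_BMM and 1493 ± 31.2 CPM in flox_BMM. Small-subunit genes summed to 857 ± 7.29, 907 ± 8.01, 657 ± 7.48 and 617 ± 20.1 CPM in the same groups. The sums fell in the same order of groups for both subunits. The ratio of large to small, per kilobase, lay between 2.92 and 3.14 in the 12 libraries. It was 2.97 to 2.99 in KO_OC, 3.05 to 3.14 in flox_OC, 2.92 to 2.96 in KO_BMM and 2.97 to 3.08 in flox_BMM. KO libraries thus lay slightly below flox libraries under each treatment, and the cause was not tested. Mrpl52, the gene with the highest level per kilobase and lower in KO under both treatments, weighs most in this ratio. Its part was not tested. In summed CPM not divided by length, KO over flox was 0.935 for large and 0.946 for small with RANKL. With M-CSF alone it was 1.063 and 1.065.

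RANKL was compared with M-CSF alone within each genotype. In KO cells, 64 of the 75 genes rose and 3 fell, against a background of 35.5% of all 13030 tested genes called higher and 35.0% called lower (edgeR adjusted p under 0.05). The 64 are 85.3% of the tested mitochondrial ribosomal protein genes. In flox cells, 67 rose and 0 fell, or 89.3%, where 37.0% of all genes were called higher and 37.8% lower. The median log2 fold change was 0.39 in KO cells and 0.54 in flox cells, against 0.002 and -0.004 over all genes tested. With a change of at least 1.2-fold, 53 genes rose in KO cells, against 25.6% of all genes, and 63 in flox cells, against 29.0%. By that much 0 fell in either, where 27.0% of all genes in KO cells and 31.1% in flox cells did. In KO cells, all RANKL libraries lay above all M-CSF libraries in 64 genes and below in 3, against 36.9% and 36.5% of all genes, and in flox cells in 69 and 0, against 37.3% and 37.9%. The edgeR count of 0 falls in flox cells was also 0 at an unadjusted p under 0.05 and by DESeq2, and 1 without flox_OC replicate 1. Scaling by library size alone moved the median of all genes to 0.14 in KO cells and 0.16 in flox cells. Of all calls, 63.5% and 62.8% were then higher in place of 50.4% and 49.5%. The medians of the mitochondrial ribosomal protein genes were then 0.52 and 0.71.

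The rise took in both subunits and both evolutionary origins. Of the 49 tested large-subunit genes, 43 rose in KO cells and 43 in flox cells. Of the 25 small-subunit genes, 20 rose in KO cells and 24 in flox cells. Among genes with a bacterial homolog, 35 of 45 rose in KO cells and 39 of 45 in flox cells. Among mitochondria-specific genes, 28 of 29 rose in each genotype. All 4 tested proteins of the L7/L12 stalk and its base, where translation factors dock, rose in both genotypes. Of the 8 proteins around the polypeptide exit tunnel, 8 rose in KO cells and 7 in flox cells. Of the 8 in the central protuberance, 6 rose in each.

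Mrps6, which encodes the small-subunit protein bS6m, rose most with RANKL. It was at 13.8, 13.0 and 13.2 CPM in KO_OC, 17.3, 19.4 and 18.4 CPM in flox_OC, 6.84, 5.87 and 5.67 CPM in KO_BMM and 6.69, 5.67 and 6.17 CPM in flox_BMM. The RANKL groups did not overlap the M-CSF groups, and KO_OC lay below flox_OC in every library. The log2 fold change (± SE) with RANKL was 1.13 ± 0.09, edgeR adjusted p = 2.06e-15 in KO cells, and 1.57 ± 0.09, edgeR adjusted p = 1.21e-21 in flox cells. Mrps6 shares 15.1% of its exonic bases with Slc5a3, a transporter gene on the same strand. Slc5a3 also rose with RANKL, by 1.76 in KO cells and 1.47 in flox cells on the log2 scale, and Gm49711 holds a near-identical copy of 36.2% of the Mrps6 transcript. Some reads of Mrps6 and Slc5a3 could not be told apart.

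Mrpl45 encodes mL45, which lies at the tunnel exit and helps to anchor the ribosome to the inner membrane. It was at 56.7, 55.3 and 58.2 CPM in KO_OC, 61.8, 60.3 and 60.2 CPM in flox_OC, 31.0, 27.9 and 31.4 CPM in KO_BMM and 25.3, 26.9 and 28.4 CPM in flox_BMM. Every RANKL library lay above every M-CSF library, with log2 fold changes of 0.92 ± 0.05 in KO cells and 1.18 ± 0.05 in flox cells (edgeR adjusted p = 2.5e-22 and 2.03e-26). Mrpl12 encodes the stalk protein bL12m. It was at 76.2, 73.9 and 75.2 CPM in KO_OC, 88.8, 88.2 and 85.4 CPM in flox_OC, 41.7, 43.7 and 42.7 CPM in KO_BMM and 42.1, 38.8 and 37.9 CPM in flox_BMM. Here too RANKL and M-CSF libraries stood far apart, with changes of 0.81 ± 0.04 in KO cells and 1.14 ± 0.04 in flox cells (edgeR adjusted p = 8.88e-23 and 7.69e-29).

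Mrps18b, Mrps22 and Mrpl47 completed the leading genes. Mrps18b encodes the small-subunit protein mS40 and rose by 1.08 ± 0.07 in KO cells and 1.05 ± 0.07 in flox cells. An antisense model, Gm16279, overlaps 30.5% of its exonic bases, and counting ignored strand. Mrps22 (mS22) rose by 0.84 ± 0.06 in KO cells and 0.98 ± 0.06 in flox cells. Mrpl47 (uL29m, near the tunnel exit) rose by 0.81 ± 0.07 in KO cells and 0.99 ± 0.07 in flox cells. Among the 3 genes of the S18 family, Mrps18a, whose product lies in the large subunit, rose by 0.27 ± 0.04 in KO cells and 0.50 ± 0.04 in flox cells. Mrps18c, the counterpart of bacterial S18, had a change of 0.10 ± 0.06 in KO cells, which did not pass, and rose by 0.24 ± 0.06 in flox cells.

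A few genes did not follow. Mrpl28 (bL28m) was at 66.4, 61.9 and 61.3 CPM in KO_OC, 64.1, 63.4 and 60.9 CPM in flox_OC, 71.2, 69.4 and 71.7 CPM in KO_BMM and 59.9, 64.6 and 60.3 CPM in flox_BMM. Only KO_BMM stood above the other groups, and with RANKL the gene fell in KO cells by 0.16 on the log2 scale (edgeR adjusted p = 0.000389) and changed by 0.03 ± 0.04 in flox cells (edgeR adjusted p = 0.568). Mrpl19 (bL19m) likewise stood highest in KO_BMM, with -0.18 ± 0.04 in KO cells (edgeR adjusted p = 0.000377) and 0.02 ± 0.04 in flox cells (edgeR adjusted p = 0.768). It shares 36.0% of its exonic bases with Gcfc2 on the other strand. Mrps21 (bS21m) fell in KO cells by 0.13 (edgeR adjusted p = 0.0226) and had -0.09 ± 0.05 in flox cells (edgeR adjusted p = 0.0868). The call of Mrps21 was lost without KO_BMM replicate 1, KO_BMM replicate 2 or KO_OC replicate 3 (edgeR adjusted p = 0.0809, 0.057 and 0.0927), and its sign turned under scaling by library size alone. In flox cells, the 8 genes that did not pass were Mrps21, Mrpl19, Mrpl28, Mrpl27, Mrpl4, Mrpl48, Mrps36 and Mrpl23. Of these, only Mrpl28 and Mrpl4 have counts free of marked sequence sharing. Near-identical sequence in other genes covers 54.1%, 73.0%, 44.1% and 68.9% of the transcripts of Mrps21, Mrpl27, Mrps36 and Mrpl23. Mrpl48, like Mrpl19, overlaps another gene, over 11.6% of its exonic bases. Whether shared sequence bears on the missing rises was not tested.

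**Figure D2:**
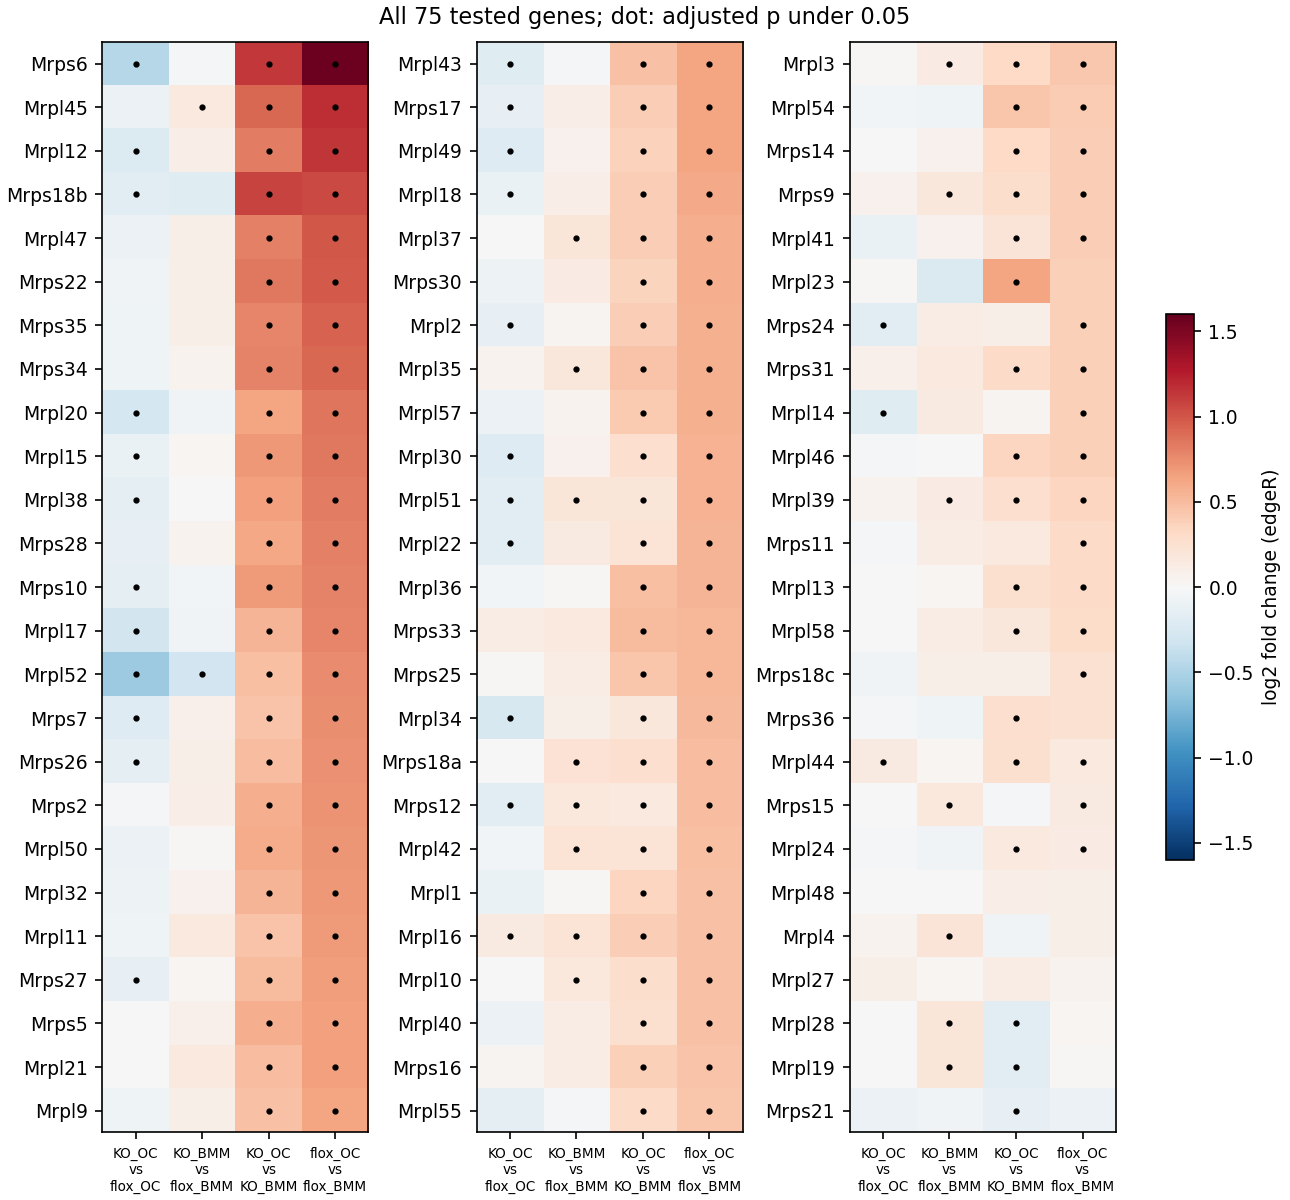
Log2 fold changes of the 75 tested genes in 4 comparisons (colour scale from blue, lower in the first-named group, to red, higher), ordered by the RANKL effect in flox cells. Dots mark an edgeR adjusted p under 0.05. The 2 RANKL columns are red for nearly all genes, while the genotype column is mostly pale blue in OC and pale red in BMM.

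The RANKL effects of KO and flox cells were then compared with each other. The difference of the RANKL effects (KO minus flox) was below 0 for 67 of the 75 genes and above 0 for 8, with a median of -0.16, against 0.01 over all genes tested. Of the 75, 25 (33.3%) were called lower and 0 higher, where 9.53% of all genes were called lower and 12.3% higher. The edgeR count of 0 higher was also 0 at an unadjusted p under 0.05 and by DESeq2. Under scaling by library size alone, 43.3% of all calls were higher in place of 56.4%. By at least 1.2-fold, 12 were lower, against 4.46% of all genes, and 0 higher, against 7.52%. Large-subunit genes made up 18 of the 25, and small-subunit genes 7. Most of the 25 rose with RANKL in flox cells and had a smaller change in KO cells, but Mrpl19 and Mrpl28 were called lower with RANKL in KO cells and not called in flox cells.

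Mrps6 had the largest difference, -0.44 ± 0.13, edgeR adjusted p = 0.0109, and lost its call without KO_BMM replicate 1 (-0.36, edgeR adjusted p = 0.0691). Next came Mrpl51 (mL51) at -0.36 ± 0.08 (edgeR adjusted p = 0.000389) and Mrpl34 (bL34m) at -0.34 ± 0.08 (edgeR adjusted p = 0.00113). Mrps12, which encodes the decoding-centre protein uS12m, differed by -0.34 ± 0.08 (edgeR adjusted p = 0.00165), and Mrpl14 (uL14m) by -0.33 ± 0.09 (edgeR adjusted p = 0.00527). Mrpl51 was at 36.6, 37.5 and 39.4 CPM in KO_OC, 45.0, 40.7 and 41.3 CPM in flox_OC, 34.3, 31.2 and 33.8 CPM in KO_BMM and 29.7, 26.7 and 30.6 CPM in flox_BMM. Its KO libraries thus lay below flox libraries with RANKL and above them without it. Mrpl14 was at 19.5, 21.7 and 21.2 CPM in KO_OC, 24.2, 23.5 and 23.5 CPM in flox_OC, 21.0, 19.98 and 19.6 CPM in KO_BMM and 20.02, 17.9 and 16.9 CPM in flox_BMM. In KO cells, the RANKL and M-CSF values of Mrpl14 overlapped, and its change of 0.04 ± 0.06 did not pass (edgeR adjusted p = 0.547).

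Across the 75 genes, RANKL effects in KO and in flox cells, which share no library, had a Pearson r of 0.92 and a Spearman rho of 0.89, with 71 genes of the same sign. Over all 13030 genes the values were 0.92 and 0.90. These describe genes of the same libraries and were not tested. Of the 25 called differences, 14 kept their call when any 1 of the 12 libraries was left out, and the number called lay between 21 and 34. DESeq2 called 20 lower.

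**Figure D3:**
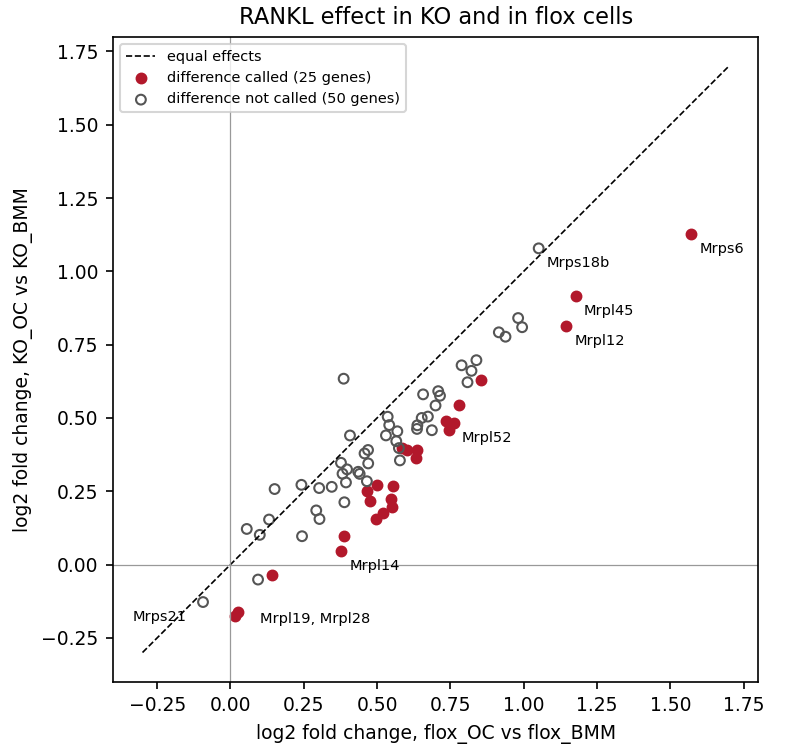
RANKL effect (log2 fold change) in KO cells (y axis, KO_OC vs KO_BMM) against that in flox cells (x axis, flox_OC vs flox_BMM), 1 point per tested gene, with the line of equal effects. Filled points are the 25 genes whose difference was called, and all of them lie below the line.

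KO was compared with flox under RANKL. In KO_OC, 24 of the 75 genes were lower than in flox_OC and 2 higher, or 32.0% and 2.67%, where 19.9% of all tested genes were called lower and 21.4% higher. The changes were small. The median log2 fold change was -0.07, against 0.006 over all genes, and 4 genes fell by at least 1.2-fold, where 10.0% of all genes did, while 0 rose by that much, against 9.82%. In 27 genes, all 3 KO_OC libraries lay below all 3 flox_OC libraries, and in 2 genes above, against 24.7% and 26.6% of all genes. Of the 24 calls, 11 held when any 1 library was left out, and the count lay between 16 and 25. DESeq2 called 16 lower.

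Mrpl52 fell most. It was at 50.3, 53.7 and 53.7 CPM in KO_OC, 83.6, 78.4 and 74.4 CPM in flox_OC, 35.0, 37.6 and 40.1 CPM in KO_BMM and 49.1, 49.1 and 41.3 CPM in flox_BMM. KO libraries lay below flox libraries under both treatments, with log2 fold changes of -0.59 ± 0.05, edgeR adjusted p = 1.64e-09 with RANKL, and -0.31 ± 0.06, edgeR adjusted p = 0.0003 with M-CSF alone. It was the only one of the 75 genes called lower in KO under both treatments. RANKL still raised it in both genotypes, by 0.48 ± 0.06 in KO cells and 0.76 ± 0.06 in flox cells.

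Mrps6, given above, fell by 0.46 ± 0.07 in KO_OC (edgeR adjusted p = 7.62e-07) and had -0.01 ± 0.11 in KO_BMM (edgeR adjusted p = 0.94). Slc5a3, which overlaps it, was lower in KO_OC by 0.35 and in KO_BMM by 0.65 (edgeR adjusted p = 0.000181 and 5.24e-05). Mrpl17 (bL17m, at the exit tunnel) was at 56.5, 53.0 and 50.7 CPM in KO_OC and 66.3, 66.5 and 62.6 CPM in flox_OC, a change of -0.29 ± 0.05, edgeR adjusted p = 1.15e-05. Mrpl20 (bL20m) was at 79.7, 80.9 and 77.6 CPM in KO_OC and 99.7, 94.3 and 95.8 CPM in flox_OC, a change of -0.28 ± 0.04, edgeR adjusted p = 2.51e-07. Neither gene's KO_OC values reached those of flox_OC, while their KO_BMM and flox_BMM values overlapped. Mrpl34 was at 27.2, 29.1 and 29.5 CPM in KO_OC and 35.8, 33.4 and 33.0 CPM in flox_OC, a change of -0.25 ± 0.05, edgeR adjusted p = 0.000131. The 5 genes above kept their calls without any 1 library.

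Both rises in KO_OC were slight. Mrpl16 (uL16m) was at 33.7, 30.3 and 32.9 CPM in KO_OC, 28.9, 27.7 and 30.9 CPM in flox_OC, 25.5, 24.6 and 23.8 CPM in KO_BMM and 20.5, 21.3 and 21.4 CPM in flox_BMM. Its KO_OC and flox_OC values overlapped, and the change of 0.14 ± 0.05, edgeR adjusted p = 0.0271, was lost without KO_OC replicate 1 or 3 or flox_OC replicate 1 or 2 (0.11, 0.13, 0.14 and 0.11). Mrpl44 (mL44) changed by 0.14 ± 0.06, edgeR adjusted p = 0.0368, and this call was lost without KO_OC replicate 1 or 3 or flox_OC replicate 1 or 3 (0.13, 0.12, 0.14 and 0.12). The count of 2 rises was thus 0 without KO_OC replicate 1, KO_OC replicate 3 or flox_OC replicate 1. DESeq2 called neither gene.

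With M-CSF alone, 16 of the 75 genes were higher in KO_BMM than in flox_BMM and 1, Mrpl52, was lower. The share called higher, 21.3%, was near the 19.3% of all tested genes. The share called lower, 1.33%, stood below the 20.6% of all genes. The median log2 fold change was 0.09, against 0.0008 over all genes, with 60 of the 75 above 0. No gene rose by 1.2-fold, where 7.88% of all genes did, and Mrpl52 fell by that much, where 12% did. The fall by 1.2-fold was met by 0 genes without KO_BMM replicate 1, flox_BMM replicate 1 or flox_BMM replicate 2, and by 2 without flox_BMM replicate 3, which also left 2 genes called lower. Under scaling by library size alone, 30 genes were called higher, and 59.9% of all calls were higher in place of 48.3%. In 27 genes all KO_BMM libraries lay above all flox_BMM libraries and in 1 below, against 23.2% and 23.3% of all genes.

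Mrps18a led the rises. It was at 53.4, 57.2 and 53.1 CPM in KO_BMM and 46.1, 47.4 and 45.7 CPM in flox_BMM, with no overlap, a change of 0.23 ± 0.04, edgeR adjusted p = 1.31e-05. With RANKL its values were 66.6, 66.0 and 65.1 CPM in KO_OC and 64.9, 66.2 and 65.7 CPM in flox_OC, which overlapped. Mrpl16 rose by 0.22 ± 0.06, Mrpl42 (mL42) by 0.22 ± 0.05, Mrpl4 (uL4m) by 0.20 ± 0.04 and Mrpl28 by 0.20 ± 0.04 (edgeR adjusted p = 0.00296, 0.00012, 0.000204 and 8.73e-05). Of the 16 rises, 10 held without any 1 library, and DESeq2 called 12 genes higher. Mrpl10 lost its call without flox_BMM replicate 3 (0.13), and Mrpl51 without flox_BMM replicate 2 (0.14). Mrpl3 lost it without KO_BMM replicate 1 or flox_BMM replicate 2 or 3 (0.12, 0.13 and 0.12), and Mrpl39 without KO_BMM replicate 1 or 2 or flox_BMM replicate 2 (0.12, 0.13 and 0.11). Mrpl45 lost it without KO_BMM replicate 1 or 3 or flox_BMM replicate 1 (0.14, 0.13 and 0.13), and Mrps12 without KO_BMM replicate 2 or 3 or flox_BMM replicate 2 (0.14, 0.14 and 0.12).

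**Figure D4:**
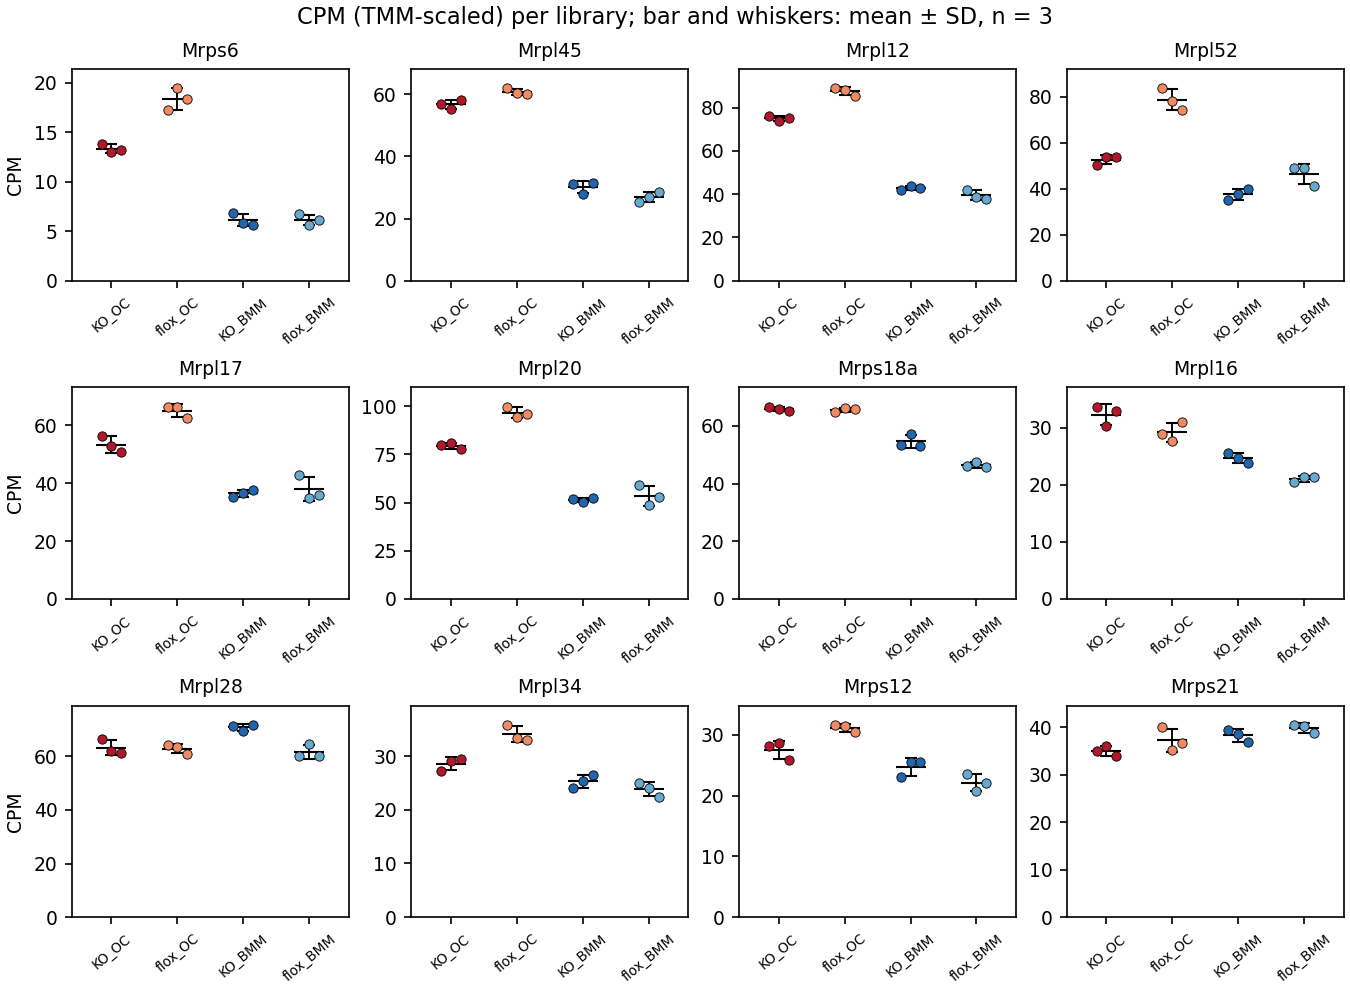
CPM (TMM-scaled, linear axes from 0) of 12 genes in each library, by group; horizontal bars and whiskers are mean ± SD of 3 libraries. Mrps6, Mrpl45 and Mrpl12 stand higher in both RANKL groups, Mrpl52 stands lower in KO than in flox under both treatments, and Mrpl28 stands apart only in KO_BMM.

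Genotype effects without and with RANKL, which share no library, had a Pearson r of 0.47 and a Spearman rho of 0.39 over the 75 genes, and 33 genes had the same sign. Over all 13030 genes the values were 0.66 and 0.49, with 8702 of the same sign. As to calls in all comparisons, 28 genes rose with RANKL in both genotypes and passed nothing else. A further 12 rose with RANKL in both genotypes, were lower in KO_OC than in flox_OC and had a smaller RANKL effect in KO cells. Mrpl27 and Mrpl48 passed no comparison. Mrpl51 and Mrps12 were called higher in KO_BMM and lower in KO_OC. Their calls in KO_OC were lost without KO_OC replicate 1 or flox_OC replicate 1 for Mrpl51 (-0.14 and -0.12) and without KO_OC replicate 3 for Mrps12 (-0.13).

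Mitochondrial ribosome proteins with other symbols were taken as a separate list of 5 genes. All 5 rose with RANKL in both genotypes, where 35.5% of all genes in KO cells and 37.0% in flox cells were called higher. The count in KO cells was 3 without KO_BMM replicate 1, KO_BMM replicate 2, KO_OC replicate 1 or KO_OC replicate 2. Ptcd3, a pentatricopeptide protein of the small subunit, rose by 0.85 ± 0.05 in KO cells and 0.99 ± 0.05 in flox cells. Chchd1 rose by 0.51 ± 0.06 and 0.87 ± 0.06, Gadd45gip1 by 0.68 ± 0.07 and 0.78 ± 0.07, Dap3 by 0.11 ± 0.04 and 0.27 ± 0.05 and Aurkaip1 by 0.11 ± 0.04 and 0.26 ± 0.04 in KO and in flox cells. In KO_OC, Chchd1, Gadd45gip1 and Aurkaip1 were lower than in flox_OC, where 19.9% of all genes were, which became 1 gene without KO_OC replicate 1. In KO_BMM, Dap3, Chchd1 and Ptcd3 were higher than in flox_BMM, where 19.3% of all genes were, which became 1 gene without flox_BMM replicate 3.

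Of 26 genes for mitoribosome assembly and rRNA modification, 14 rose and 1 fell with RANKL in KO cells. In flox cells 19 rose and 2 fell, where 1 fell without flox_BMM replicate 2. The shares of all tested genes, for this and the lists below, were 35.5% higher and 35.0% lower in KO cells. In flox cells they were 37.0% and 37.8%. Noa1, a GTPase of small-subunit assembly, rose by 0.84 ± 0.05 in KO cells and 0.98 ± 0.05 in flox cells, and Mrm3, an rRNA methyltransferase, by 0.76 ± 0.09 and 0.96 ± 0.09 in the same cells. Of 13 mitochondrial translation factors, 9 rose in KO cells and 10 in flox cells, and 0 fell in either, by edgeR, at an unadjusted p under 0.05 or by DESeq2. The number in KO cells was 5 without KO_BMM replicate 2. Tsfm, the exchange factor for elongation factor Tu, rose by 0.56 ± 0.06 in KO cells and 0.92 ± 0.06 in flox cells. Its RANKL effect was smaller in KO cells by 0.36 ± 0.09 (edgeR adjusted p = 0.00209), and those of Taco1, Tufm and Oxa1l were also called smaller. Among all genes, 9.53% were called lower in this difference. Of these 4 called differences, 1 was left without KO_BMM replicate 3, and 2 without KO_BMM replicate 1 or flox_OC replicate 3.

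Of 20 mitochondrial tRNA synthetases, 17 rose and 0 fell in each genotype. As above, 35.5% of all genes rose and 35.0% fell in KO cells, and 37.0% and 37.8% in flox cells. The 0 falls were 0 at an unadjusted p under 0.05 and by DESeq2, and in KO cells 1 without KO_BMM replicate 2 or KO_OC replicate 3. Mars2, which charges methionine tRNA, rose by 1.21 ± 0.06 in KO cells and 1.39 ± 0.06 in flox cells. Of 20 tested genes for mitochondrial transcription, RNA processing and DNA maintenance, 16 rose in KO cells and 18 in flox cells, while 2 fell in each. Twnk, the mitochondrial DNA helicase, rose by 1.02 ± 0.07 in KO cells and 1.29 ± 0.07 in flox cells, and Supv3l1, an RNA helicase, by 0.99 ± 0.06 and 1.24 ± 0.06. Of 11 tested regulators of nuclear genes for mitochondria, 7 rose and 2 fell in each genotype, with 1 fall in flox cells without flox_BMM replicate 1. Myc, a transcription factor that drives ribosome and mitochondrial biogenesis, was at 256 ± 12.1 CPM in KO_OC, 309 ± 6.69 CPM in flox_OC, 71.2 ± 2.44 CPM in KO_BMM and 73.1 ± 10.4 CPM in flox_BMM. Ppargc1b, a coactivator of mitochondrial biogenesis in osteoclasts, was at 8.42 ± 0.695 CPM in KO_OC, 10.6 ± 0.671 CPM in flox_OC, 6.81 ± 0.236 CPM in KO_BMM and 6.07 ± 0.933 CPM in flox_BMM, and its RANKL effect was smaller in KO cells by 0.50 ± 0.14 (edgeR adjusted p = 0.00857). Of 10 mitochondrial chaperones and proteases, 8 rose and 1 fell in each genotype, with 0 falls in KO cells without KO_OC replicate 1. Hspd1, the chaperonin subunit, rose by 1.29 ± 0.04 in KO cells and 1.51 ± 0.04 in flox cells.

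Genes of the respiratory chain were set beside these. Of 76 nuclear-encoded subunits, 38 rose and 6 fell with RANKL in KO cells, and 58 rose and 3 fell in flox cells. Their medians were 0.11 and 0.21. With RANKL, 35.5% of all genes rose and 35.0% fell in KO cells, and 37.0% and 37.8% in flox cells. The difference of the RANKL effects was called lower for 26 of them (34.2%, against 9.53% of all genes) and higher for 0, also at an unadjusted p under 0.05 and by DESeq2. The count of 26 was 41 without flox_BMM replicate 1. In KO_BMM 34 (44.7%) were higher than in flox_BMM, against 19.3% of all genes. In KO_OC 12 (15.8%) were lower than in flox_OC, a share below the 19.9% of all genes, and this count became 6 without KO_OC replicate 3 and 7 without flox_OC replicate 1 or 3. Of the 13 mitochondrially encoded protein genes, whose mRNAs the mitochondrial ribosome translates, 7 were tested. Of the untested, mt-Co2, mt-Atp8, mt-Nd3 and mt-Nd4l were at 0 in every library, and mt-Atp6 and mt-Co3 in all but 1. Why these counts were at 0 was not tested. They need not mean that the transcripts were absent, and the 7 tested genes may not stand for all 13. All 7 tested genes rose with RANKL in KO cells (median 0.42), whereas in flox cells 0 rose and 1 fell (median -0.13). That fall was lost without flox_OC replicate 2 or 3 or flox_BMM replicate 2 or 3. The difference of the RANKL effects was called higher for 5 of the 7, where 12.3% of all genes were, and lower for 0, also at an unadjusted p under 0.05 and by DESeq2. The count of 5 was 2 without replicate 1 or 3 of KO_BMM, or without replicate 2 or 3 of KO_OC, flox_OC or flox_BMM. In KO_OC against flox_OC, all 7 had a log2 fold change above 0 (median 0.24) and 1 was called higher, which became 2 without KO_OC replicate 1 and 0 without flox_OC replicate 3. In KO_BMM against flox_BMM, 0 of the 7 were above 0 (median -0.28) and 3 were called lower. The count of 3 was 0 without KO_BMM replicate 1 or 3 or flox_BMM replicate 2 or 3, 6 without flox_BMM replicate 1, and 6 by DESeq2. These medians have the opposite sign to those of the mitochondrial ribosomal protein genes, -0.07 in KO_OC and 0.09 in KO_BMM, and the difference between the lists was not tested. Of the cytosolic ribosomal protein genes, 75 of 77 were higher with RANKL in each genotype. Their difference of RANKL effects was called lower for 19, against 9.53% of all genes, which became 11 without KO_BMM replicate 3 and 12 without flox_OC replicate 1, and 44 were lower in KO_OC than in flox_OC, against 19.9% of all genes. Many of them have near-identical copies, and their levels are uncertain.

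**Figure D5:**
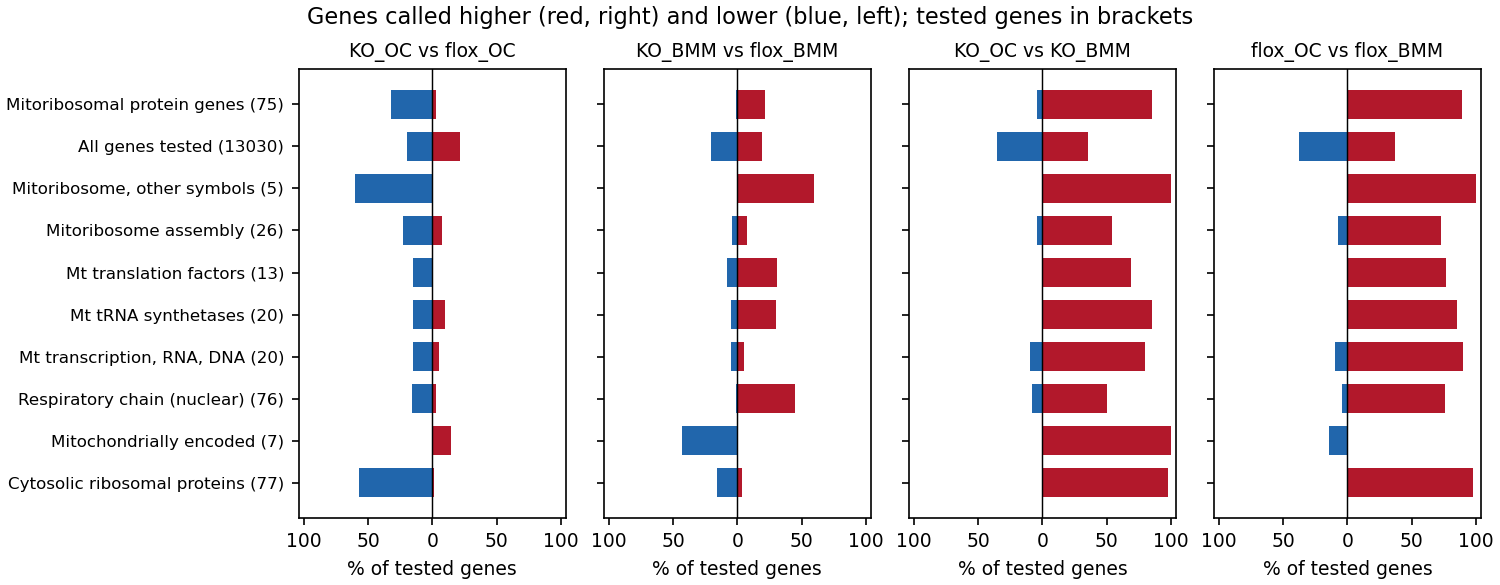
Percent of tested genes called higher (right) and lower (left) in each comparison, for the 75 mitochondrial ribosomal protein genes, all genes tested and 8 related lists; tested genes in brackets. With RANKL, the bars of the mitochondrial ribosomal protein genes reach 85.3% in KO cells and 89.3% in flox cells on the right, against 35.5% and 37.0% of all genes.

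Proliferation genes also differed between the groups. The 12 mitosis genes summed to 3071 to 3140 CPM in KO_OC, 2453 to 2487 CPM in flox_OC, 2666 to 2784 CPM in KO_BMM and 1537 to 1723 CPM in flox_BMM. All 12 were higher in KO than in flox under both treatments, and all 12 had a smaller RANKL effect in KO cells. Of all genes, 21.4% were called higher in KO_OC, 19.3% in KO_BMM, and 9.53% lower in the difference of the RANKL effects. The 14 DNA replication and G1/S genes summed to 3529 to 3582 CPM in KO_OC, 3876 to 3898 CPM in flox_OC, 2950 to 2986 CPM in KO_BMM and 3162 to 3431 CPM in flox_BMM. Their part in the results of the mitochondrial ribosomal protein genes was not tested.

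Many of these genes lie head to head with another gene. Of the 75 tested, 29 (38.7%) had the start of a protein-coding gene on the opposite strand within 1000 bases, against 16.0% of the 11658 tested protein-coding genes. Mrpl46 and Mrps11 were the only pair within the family. Their gene models overlap, and their starts lie 412 bases from each other. The start of Mrpl43 lies 116 bases from that of Twnk. That of Mrps12 lies 148 bases from the start of Sars2, the mitochondrial serine tRNA synthetase. That of Mrpl47 lies 157 bases from the start of Ndufb5, a subunit of respiratory complex I. Of 25 tested partners outside the family, 15 rose and 2 fell with RANKL in KO cells, against 35.5% and 35.0% of all genes. In flox cells 17 of these partners rose and 3 fell, against 37.0% and 37.8%. The partners' median log2 fold change was 0.21 in KO cells and 0.31 in flox cells. It was 0.39 and 0.59 for the mitochondrial ribosomal protein genes beside them. In KO_OC against flox_OC, 5 of the 25 partners were higher and 4 lower, near the 21.4% and 19.9% of all genes. Of the genes beside them, 1 was higher and 10 were lower, and the difference between them and their partners was not tested.

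Some counts are uncertain because of shared sequence. Of the 77 genes, 18 overlap other gene models over more than 10% of their exons, and 17 have a copy of at least 95% identity over more than 20% of their transcript. Over 50% of the exonic bases are shared in Mrpl53, Mrps34 (77.8%, with Mapk8ip3) and Mrps25 (53.7%, with Nr2c2). The other overlapped genes are Mrpl10, Mrpl12, Mrpl14, Mrpl18, Mrpl19, Mrpl24, Mrpl46, Mrpl47, Mrpl48, Mrps6, Mrps7, Mrps18b, Mrps24, Mrps27 and Mrps30. Mrpl22 has a copy over 86.0% of its transcript. Without the 32 genes in either class, 44 tested genes were left. Of these, 40 rose and 1 fell with RANKL in KO cells, and 42 rose and 0 fell in flox cells. In KO_OC 2 were higher and 13 lower than in flox_OC, in KO_BMM 13 were higher and 1 lower than in flox_BMM, and the difference of the RANKL effects was called lower for 16 and higher for 0. The medians were 0.38, 0.55, -0.07, 0.10 and -0.15 in the same order.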

How the data were processed

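Per the labels' protocols, total RNA came from Qiagen kits with a DNase step, and library construction used oligo-dT. The deposited files hold raw counts of reads per gene, made by the authors with featureCounts 1.4.5-p1 on Ensembl release 76 without regard to strand, per the file headers. The submitters' processing notes name STAR 2.0.4b, Subread and GRCm38. Gene names and types came from GENCODE M21, and 1134 identifiers without a name held 0.136% of counts. Promoters came from RefSeq (GRCm38.p6).

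One edgeR 4.0.16 quasi-likelihood model (R 4.3.3, TMM scaling, low-count filter by group, 4 group means, robust fit) was fitted to 12 libraries and 13030 genes. Calls are Benjamini-Hochberg adjusted p under 0.05, and a secondary rule adds a change of at least 1.2-fold. The scripts were tested on simulated data. Alternatives were other scalings and filters, DESeq2 1.42.0, a replicate block, fits on the compared groups alone and leaving out each library. Copies were searched with blastn 2.17.0. Libraries of 18489873 to 21667237 counts put 3 counts at 0.138 to 0.162 counts-per-million before TMM scaling, which covers counting error only.

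The genes and lists were chosen with earlier results of these data known. Genes named with values are, in each comparison, the 5 largest called rises and falls with at least 5 CPM in the higher group, the 5 highest and lowest levels per kilobase, the S18 family, untested genes and genes with over 10% exonic overlap. From each list up to 4 called genes were eligible.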

Additional observations from a re-analysis of the deposited data

Results flagged for a closer look

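The effect of RANKL differed between KO and flox cells in 25 of the 75 tested genes, by the interaction term of the edgeR fit (adjusted p under 0.05). In all 25 the difference (KO minus flox, log2) was below 0. The widest differences were those of Mrps6 (-0.44), Mrpl51 (-0.36), Mrpl34 (-0.34), Mrps12 (-0.34), Mrpl14 (-0.33), Mrpl12 (-0.33), Mrpl22 (-0.32), Mrps7 (-0.29) and Mrps24 (-0.29). They were followed by Mrpl30 (-0.28), Mrpl52 (-0.28), Mrpl49 (-0.27), Mrpl45 (-0.26), Mrpl42 (-0.26), Mrps17 (-0.25), Mrps26 (-0.25) and Mrpl17 (-0.24). The smallest called differences were those of Mrpl20 (-0.23), Mrps18a (-0.23), Mrpl18 (-0.21), Mrpl40 (-0.21), Mrpl19 (-0.19), Mrpl37 (-0.19), Mrpl28 (-0.19) and Mrps15 (-0.18). Over all genes tested, 9.53% were called lower and 12.3% higher in this comparison. The cause was not tested.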

How the results depend on the processing

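Over the alternatives, 5005 of the single-gene results kept their direction and side of the threshold, 105 passed it newly, 138 no longer passed and 2 reversed. With library size alone, 30 genes were higher in KO_BMM than in flox_BMM (16 with TMM), 1 of them by 1.2-fold (0 with TMM), and 0 were lower in KO_OC than in KO_BMM (3 with TMM). The medians of the RANKL effects were then 0.52 in KO cells and 0.71 in flox cells, and Mrps15 and Mrps21 changed by 0.10 and 0.0071 in KO cells. The 2 rises in KO_OC were 0 with DESeq2 and 1 without a low-count filter. Leaving out a library gave 1 to 2 genes lower in KO_BMM, 0 to 2 lower by 1.2-fold there, 0 to 2 higher in KO_OC than in flox_OC and 0 to 1 lower with RANKL in flox cells. The causes were not tested. Medians without overlapped or copied genes, an alternative chosen after seeing the data, moved by less than the spread between replicates.

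With the replicate number as a block, 22 genes were lower in KO_OC (24 without it), since Mrpl15 and Mrpl18 (both -0.11) missed the threshold. No other count of calls changed. Same-numbered libraries of different groups had correlations of deviations between -0.035 and 0.040, and other-numbered libraries between -0.0548 and 0.0457. Whether same-numbered libraries shared an animal or a culture was not tested.

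Mrpl53 and Mrps23 did not pass the low-count filter. Precision rests on 3 libraries a group, whose origin is not stated.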
